A study of Mus musculus with 40 samples.

Results

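The genes described here were the 8 interferon regulatory factors Irf1, Irf2, Irf3, Irf4, Irf5, Irf7, Irf8 and Irf9, found as the rows of the expression table whose symbol was one of these names. They made up 8 of its 27179 rows. The rows were matched by symbol and by no measured value, although the members were chosen with earlier results of these data known. The libraries came from bone marrow derived macrophages (BMDMs), primary macrophages grown from the marrow of adult male mice in medium conditioned by M-CSF producing L-cells. Marrow came from 4 wildtype (WT) mice and 4 mice with a total knockout of Cpeb4 (Cpeb4-/-, KO), all on a mixed C57BL/6J and 129 background. CPEB4 is a cytoplasmic polyadenylation element binding protein that regulates the poly(A) tails, translation and stability of mRNAs. Cells of each mouse were left untreated (0 hr) or treated with 10 ng/ml bacterial lipopolysaccharide (LPS), which triggers TLR4, for 1, 3, 6 or 9 hr. This gave 40 libraries in 10 groups of 4, with every mouse present at all 5 times. The labels put 2 mice of each genotype in each of 2 batches, and no cage held both genotypes, so cage and genotype cannot be told apart.

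IRFs share a DNA binding domain that reads GAAA repeats, as found in interferon-stimulated response elements (ISRE). In macrophages TLR4 signals through the adaptors TRIF and MyD88. On the TRIF arm the kinases TBK1 and IKKε phosphorylate IRF3, which is present before stimulation, to switch on Ifnb1. Secreted interferon then activates ISGF3, a complex that holds STAT2 and IRF9, which turns on antiviral genes and Irf7, an amplifier of interferon production. IRF1 is an inducible activator and IRF2 its antagonist at shared sites. IRF5 acts with MyD88 on inflammatory cytokine genes, and IRF4 competes with it for MyD88. IRF8 is a myeloid factor that binds with PU.1, and IRF4 is linked to alternative activation.

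The members lay at 8 loci on 6 chromosomes (mm10, GENCODE vM21). Irf3 lay at chr7:44997648-45002848, Irf7 at chr7:141262706-141266481 on the minus strand and Irf9 at chr14:55603571-55610030. Irf1 lay at chr11:53770014-53778374, Irf2 at chr8:46739732-46847458 and Irf8 at chr8:120736358-120756694. Irf5 lay at chr6:29526625-29541871 and Irf4 at chr13:30749226-30766976. Irf1 was on the chromosome of Cpeb4, 21.83 Mb away. The exons of Irf5 overlapped those of Tnpo3 on the other strand by 251 bases, those of Irf9 overlapped Rnf31 by 123 bases and those of Irf1 overlapped Gm17334 by 100 bases. The library kit does not mark strand, so reads in these stretches cannot be told apart, and the values of Irf5, Irf9 and Irf1 carry that uncertainty.

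The promoter sequences below are shown because several IRF genes are themselves LPS or interferon responsive. The capitals mark matches to 3 response element motifs, which are a description and not shown binding sites. Windows of 250 bases before to 50 after the start (RefSeq, GRCm38.p6) were at hand for 8 of 8 members and were searched on both strands for an ISRE core (GAAANNGAAA, read by IRFs and ISGF3), a gamma-activated sequence or GAS (TTCNNNGAA, read by STAT dimers) and a kappaB site (GGGNNNTTCC, read by NF-kappaB). Matches lay in Irf1, Irf2 and Irf8. Each line gives 30 bases of the plus strand with the match in capitals and its first base relative to the start.
Irf1, GAS at -90, chr11:53769914-53769943: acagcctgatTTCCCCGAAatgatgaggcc
Irf2, ISRE core at -241, chr8:46739495-46739524: tggggaagtGAAAATGAAAttgacttttcc
Irf2, GAS at -224, chr8:46739511-46739540: aaattgacttTTCCGAGAAatgatgaaagc
Irf2, kappaB at -17, chr8:46739718-46739747: cgggggtgggGGGGATTTCCagcctcggct
Irf8, GAS at -171, chr8:120736177-120736206: caaaagtgatTTCTCGGAAagagagcgctt
Irf8, GAS at -153, chr8:120736195-120736224: aagagagcgcTTCAGAGAAggcggatttgg
The ISRE core and the upstream GAS of Irf2 do not overlap each other, although their windows do, and the same holds for the 2 GAS matches of Irf8. Of all 32851 RefSeq promoter windows of this length, 3.44% held the ISRE core, 8.3% a GAS and 5.56% a kappaB match. Irf3, Irf4, Irf5, Irf7 and Irf9 held none of the 3, which says only that these letters were not in these windows.

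Levels are given as deposited rlog values, a log2 scale of read counts scaled for library size and shrunken for low counts, so differences of low genes such as Irf4 are understated. A difference of 1 is a doubling. Differences were tested with limma over all genes that averaged 2.32 or more (log2 of 5), each is given ± its standard error, and a gene was called at an adjusted p under 0.05. The 8 members passed that filter in every comparison. The tables hold no read totals, so the depth behind each value is unknown, and in bulk RNA fewer expressing cells and less mRNA per cell cannot be told apart.

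The cells carried macrophage markers. All 8 macrophage markers were above the filter in each group, with Lyz2 at 17.72 to 18.91 and Csf1r at 15.09 to 15.93. The T cell markers never passed the filter, and Cd79b was the only B cell marker above it. Of 6 neutrophil markers 1 to 3 passed in a group, with Camp at up to 5.00, Ngp at up to 4.59 and Ltf at up to 3.43, while Ly6g and Elane lay below 0. Among erythroid markers Alas2 reached 2.83 and Hbb-b1 lay below 0. The summed linear level of the macrophage markers was lower in KO than in WT at each time without overlap, from 516905–642533 in untreated WT and 412374–491187 in untreated KO to 620165–652574 in WT and 495678–575905 in KO at 6 hr. Lyz2 made up 42.9% to 68.8% of that sum; without it the genotypes still did not overlap at 0, 1, 3 and 6 hr but did at 9 hr (286269–298853 in WT and 265550–287035 in KO). Of the 8 markers 1, 1, 2, 4 and 3 were called lower in KO at 0, 1, 3, 6 and 9 hr and none higher. Of all genes 0.565%, 0.938%, 1.87%, 9.92% and 3.22% were called lower at those times. Cpeb4 itself was lower in KO at 6 hr, at 10.09 to 10.67 in WT and 8.74 to 9.66 in KO (difference -1.27 ± 0.19, adjusted p = 0.00114), but its groups overlapped at 0, 1, 3 and 9 hr, with differences of -0.24, 0.37, -0.55 and -0.31. Values per gene do not separate deleted from retained exons, so this check does not settle the genotype, and WT and KO are used as the labels give them.

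How the IRF genes respond to LPS was followed first in WT cells. Irf7 and Irf1 rose the most, by 9.92-fold at 6 hr and 6.41-fold at 3 hr, while Irf4 fell to 0.212 of its untreated level by 9 hr. Irf2, Irf8 and Irf9 rose by smaller amounts, and Irf3 and Irf5 stayed within 0.46 of their untreated mean as deposited. At 1 hr, 5 members were called higher and 2 lower, beside 17.3% and 16.6% of all genes tested. At 3, 6 and 9 hr the counts were 6 higher and 1 lower at each time, beside 32.5% and 35.3%, 38.7% and 39.2%, and 35.9% and 35.6% of all genes. The median change of the members was 0.57 at 3 hr and 0.87 at 6 hr, against -0.02 over all genes at both times.

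**Figure D1:**
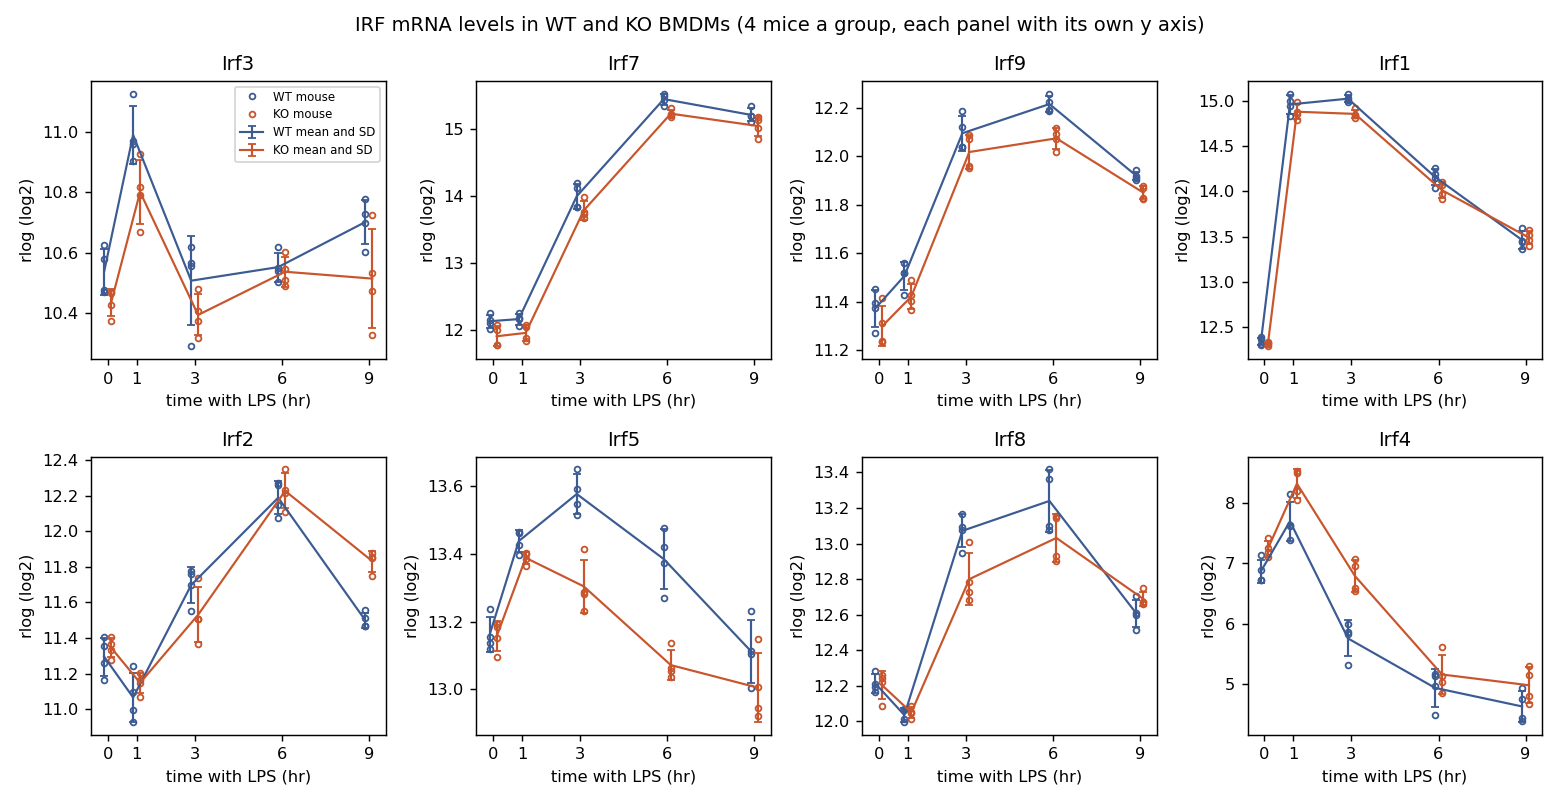
rlog level (log2 scale, a separate y axis for each gene) of the 8 IRF genes against time with LPS in hr, with 1 open point per mouse and lines through the mean with SD bars of 4 WT and 4 KO mice. Irf7 climbs from about 12.13 to 15.44 in WT, Irf1 is highest at 1 and 3 hr, Irf4 ends lowest, and the genotypes stand apart for Irf5 at 3 and 6 hr and for Irf4 at 3 hr.

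The scaling of the libraries affected small and large changes with time. The mean rlog of the 1293 genes with a mean of at least 12 was 12.69 in untreated WT cells and 13.45 at 6 hr (12.68 and 13.38 in KO), so highly expressed genes as a whole moved with time. Quantile normalization, which gives every library the same distribution of values, moved the median of all genes by less than 0.1 in every comparison but turned 19 member changes; where that happened it is said beside the change. It also made several large rises smaller, among them Irf1 at 6 hr (1.81 to 0.98) and 9 hr (1.12 to 0.61). Under it the counts of members called in WT were 3 higher and 3 lower at 1 hr, 4 and 3 at 3 hr, 5 and 3 at 6 hr and 3 and 2 at 9 hr, and the share of all calls that were higher went from 51% to 38% at 1 hr.

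Irf3, the factor upstream of Ifnb1, was 10.47, 10.58, 10.62 and 10.47 in untreated WT mice 25, 69, 87 and 88, and 10.97, 10.91, 11.13 and 10.96 at 1 hr. The 1 hr values lay above all untreated ones (0.46 ± 0.07, adjusted p = 1.27e-05). At 3 and 6 hr it was back near its start (-0.03 and 0.02, adjusted p = 0.707 and 0.839), and under quantile normalization it was instead called lower at both times (-0.20 and -0.23). At 9 hr it was called higher by 0.17 ± 0.07 (adjusted p = 0.031), a call that was lost without mouse 25 or mouse 69 (adjusted p = 0.155 and 0.114) and a direction that turned to -0.01 under quantile normalization.

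Irf7, the amplifier of the interferon response, was not called at 1 hr (12.02, 12.10, 12.26 and 12.15 untreated and 12.16, 12.06, 12.26 and 12.18 at 1 hr; 0.03 ± 0.08, adjusted p = 0.798), and under quantile normalization it was called lower there (-0.20, adjusted p = 0.0408). It reached 14.12, 13.83, 14.19 and 13.84 at 3 hr and 15.34, 15.49, 15.42 and 15.52 at 6 hr. Each time point from 3 hr on lay above the untreated values in all mice, with changes of 1.86 ± 0.08, 3.31 ± 0.08 and 3.08 ± 0.08 at 3, 6 and 9 hr (adjusted p = 6.87e-18 or less at 6 and 9 hr). From 6 to 9 hr it was called lower by -0.23 ± 0.08 (adjusted p = 0.016), which was lost without mouse 88 (adjusted p = 0.0946) and turned to 0.09 under quantile normalization.

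Irf9, the DNA binding subunit of ISGF3, rose by 0.72 ± 0.05, 0.84 ± 0.05 and 0.55 ± 0.05 at 3, 6 and 9 hr (adjusted p = 8.87e-10 or less), or by 0.37, 0.34 and 0.24 under quantile normalization, where all 3 were still called. Its WT values lay at 11.27 to 11.45 untreated, 12.04 to 12.19 at 3 hr and 12.19 to 12.26 at 6 hr, and no 3, 6 or 9 hr value overlapped the untreated ones. The call at 1 hr (0.13 ± 0.05, adjusted p = 0.0263) was lost when any 1 of the 4 WT mice was left out (adjusted p = 0.0574 to 0.125), and its direction turned to -0.02 under quantile normalization. The step from 3 to 6 hr (0.12, adjusted p = 0.025) likewise turned, to -0.03, and was lost without mouse 69 or 88 (adjusted p = 0.0962 and 0.197).

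Irf1, the inducible activator, had the largest change of the 8 at 1 hr. It stood at 12.30, 12.31, 12.39 and 12.37 in untreated WT cells and at 14.94, 14.83, 15.07 and 15.00 after 1 hr, a change of 2.62 ± 0.06 (adjusted p = 2.18e-18). At 3 hr it was 2.68 ± 0.06 above untreated, and the step from 1 to 3 hr was 0.06 ± 0.06 (adjusted p = 0.36), or -0.17 and called lower under quantile normalization (adjusted p = 0.00207). It then fell by 0.87 from 3 to 6 hr and by 0.70 from 6 to 9 hr (adjusted p = 7.87e-11 and 4.49e-09), and at 9 hr it was still 1.12 ± 0.06 above untreated. Under quantile normalization the last step was -0.38.

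Irf2, its antagonist, moved later and in a different order. It was 11.16 to 11.41 untreated, 10.93 to 11.24 at 1 hr, 11.55 to 11.78 at 3 hr and 12.07 to 12.27 at 6 hr. The groups at 3 and 6 hr lay above the untreated one, with changes of 0.40 ± 0.07 and 0.89 ± 0.07 (adjusted p = 3.14e-05 and 2.23e-10); quantile normalization brought them to 0.10 (adjusted p = 0.223) and 0.41 (adjusted p = 2.39e-05). The 1 hr call of -0.23 ± 0.07 (adjusted p = 0.0132) was lost without mouse 25 or 88 (adjusted p = 0.08 and 0.0748). Under quantile normalization that 1 hr fall was larger and called (-0.39, adjusted p = 0.000132). At 9 hr Irf2 had fallen by 0.69 from 6 hr and was 0.20 ± 0.07 above untreated (adjusted p = 0.0124), lost without mouse 87 or 88 (adjusted p = 0.109 and 0.0664) and turned to -0.07 under quantile normalization.

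Irf5, the MyD88-linked activator of cytokine genes, changed little as deposited, and the direction and size of its changes differed between scalings. As deposited it was 0.27 ± 0.05, 0.41 ± 0.05 and 0.22 ± 0.05 above untreated at 1, 3 and 6 hr in WT (adjusted p = 0.000227, 4.4e-07 and 0.000544), but these turned to -0.02, -0.21 and -0.64 under quantile normalization. The step from 1 to 3 hr (0.14, adjusted p = 0.0243) turned to -0.19 and was called lower under quantile normalization (adjusted p = 0.00104). That step was not called without mouse 25, 87 or 88 (adjusted p = 0.087, 0.107 and 0.0549). At 9 hr Irf5 was -0.05 from untreated (adjusted p = 0.396), or -0.63 and called lower under quantile normalization.

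Irf8, the partner of PU.1, was 12.16 to 12.29 untreated, 12.95 to 13.17 at 3 hr and 13.08 to 13.42 at 6 hr, which did not overlap the untreated values. Its changes were 0.86 ± 0.07 and 1.03 ± 0.07 (adjusted p = 5.22e-10 and 1.64e-11), or 0.37 and 0.30 under quantile normalization (adjusted p = 1.11e-05 and 9.03e-05). At 9 hr it was 0.39 ± 0.07 above untreated (adjusted p = 3e-05), turned to -0.04 under quantile normalization, and the step from 3 to 6 hr (0.17, adjusted p = 0.0362) turned to -0.07 and was lost without mouse 69 or 88 (adjusted p = 0.417 and 0.0979). The 1 hr call of -0.18 ± 0.07 (adjusted p = 0.0491) was lost when any 1 WT mouse was left out (adjusted p = 0.0843 to 0.148), without the trend and without the filter. Under quantile normalization that 1 hr fall was larger and called (-0.41, adjusted p = 9.28e-06).

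Irf4, which competes with IRF5 for MyD88, had the lowest level of the 8 and rose before it fell. It was 6.73, 6.89, 6.73 and 7.14 untreated, 7.64, 8.15, 7.39 and 7.61 at 1 hr and 4.44, 4.94, 4.40 and 4.76 at 9 hr. The 1 hr values all lay above, and those at 3, 6 and 9 hr all below, the untreated ones. The changes were 0.83 ± 0.18, -1.11 ± 0.18, -1.93 ± 0.18 and -2.24 ± 0.18 at 1, 3, 6 and 9 hr (adjusted p = 0.00127, 1.94e-05, 5.82e-09 and 8.29e-10).

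**Figure D2:**
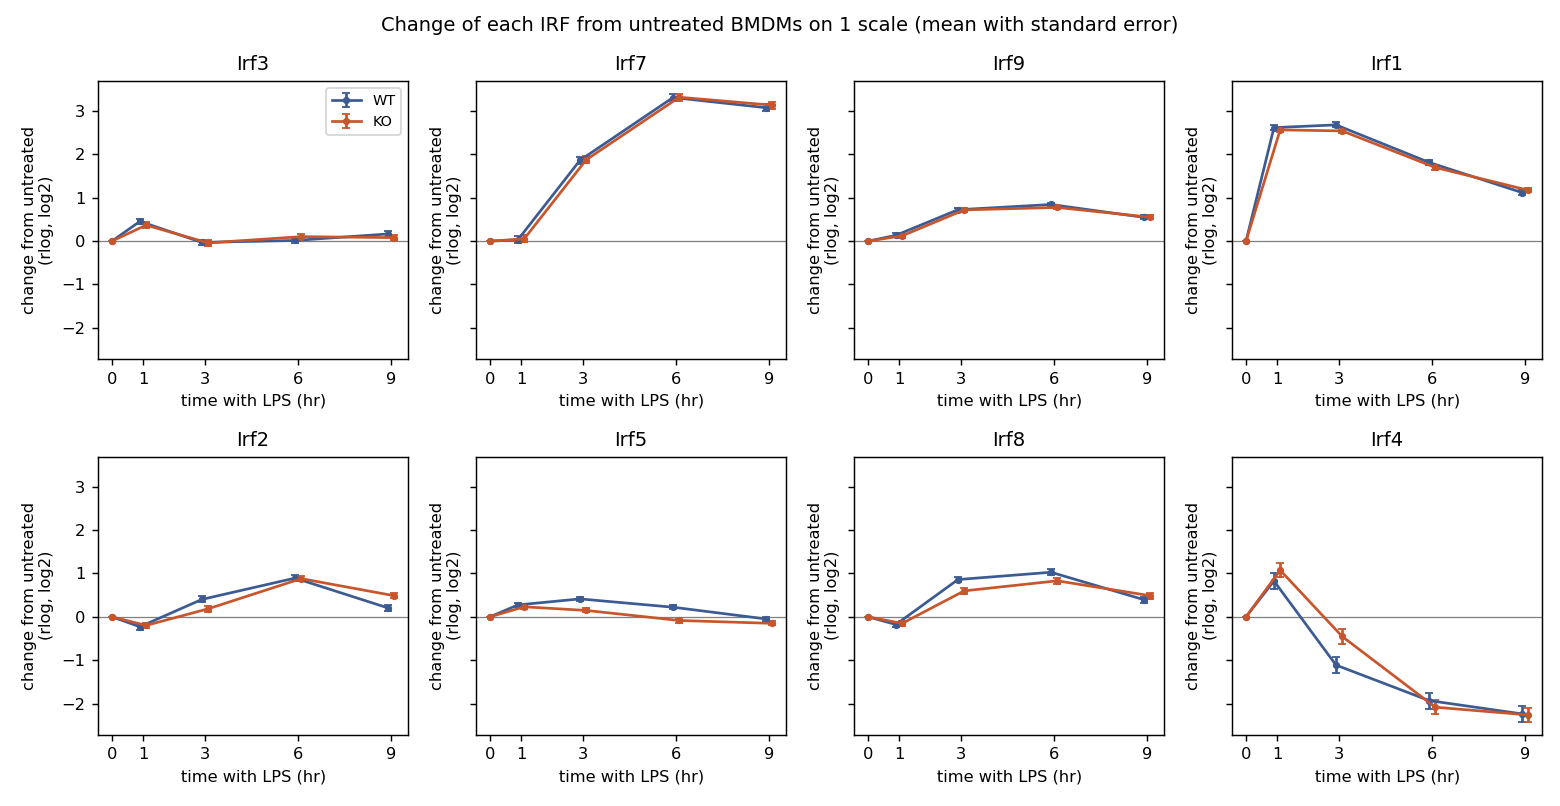
Change from untreated cells in rlog (log2 scale, with standard error) against time with LPS in hr for each IRF gene, WT and KO as separate lines on 1 common y axis. Irf7 reaches 3.31 in WT at 6 hr and Irf4 falls to -2.24 at 9 hr. The small rises of Irf5 as deposited turn sign under quantile normalization (0.41 in WT at 3 hr against -0.21).

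Over consecutive times in WT cells, 5 members were called higher and 2 lower from 1 to 3 hr (28% and 32.1% of all genes), 4 and 3 from 3 to 6 hr (33.3% and 30.4%) and 0 and 6 from 6 to 9 hr (23.5% and 27.9%). Under quantile normalization 4 were higher and 4 lower from 1 to 3 hr, and 2 and 3 from 3 to 6 hr. The 6 that came down in the last step were Irf1, Irf2, Irf5, Irf7, Irf8 and Irf9, with Irf5 turning to 0.01 and Irf7 to 0.09 under quantile normalization, where Irf9 was not called either (-0.10, adjusted p = 0.0829) and Irf3 was called higher (0.22, adjusted p = 0.0155), so that 1 was higher and 3 were lower. Irf3 (0.15) and Irf4 (-0.31) were not called in that step; with mouse as a block both were (adjusted p = 0.0139 and 0.0427).

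In KO cells the same changes were tested within their own 20 libraries. At 1 hr, 5 were called higher and 1 lower (23.8% and 20% of all genes), at 3 hr 6 and 1 (34.4% and 36.9%), at 6 hr 5 and 1 (39% and 40.1%) and at 9 hr 5 and 2 (36.4% and 36.4%). Under quantile normalization they were 3 higher and 2 lower at 1 hr, 4 and 2 at 3 hr, 5 and 2 at 6 hr and 4 and 2 at 9 hr. Irf1 rose by 2.56 ± 0.05 at 1 hr and Irf7 by 3.32 ± 0.08 at 6 hr, and Irf4 was at 1.08 ± 0.17, -0.45 ± 0.17, -2.08 ± 0.17 and -2.26 ± 0.17 from untreated at 1, 3, 6 and 9 hr. The call of Irf4 at 3 hr (adjusted p = 0.0196) was lost without mouse 2, 55 or 62 (adjusted p = 0.085, 0.0526 and 0.0598) and under quantile normalization (-0.22, adjusted p = 0.261). Quantile normalization moved the share of higher calls at 1 hr from 54.3% to 38.1% of the genes called.

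The smaller changes in KO cells were as follows. Irf2 was 0.18 ± 0.06 above untreated at 3 hr in KO (adjusted p = 0.0119, lost without mouse 55 at 0.113 and turned to -0.10 under quantile normalization), 0.88 ± 0.06 at 6 hr and 0.49 ± 0.06 at 9 hr. Irf5 was 0.23 ± 0.05 and 0.15 ± 0.05 above at 1 and 3 hr, which turned to -0.06 and -0.44 under quantile normalization, and the 3 hr call was lost without mouse 55 (adjusted p = 0.0587). At 6 hr Irf5 was -0.08 ± 0.05 from untreated (adjusted p = 0.104) and at 9 hr -0.15 ± 0.05 (adjusted p = 0.00679, lost without mouse 62 at 0.0923), against -0.85 and -0.69 under quantile normalization, both called (adjusted p = 9.99e-14 and 4.74e-12). Irf8 and Irf9 rose by 0.83 ± 0.07 and 0.78 ± 0.04 at 6 hr (0.19 and 0.34 under quantile normalization) and Irf3 by 0.37 ± 0.07 at 1 hr; the 1 hr call of Irf9 (0.12, adjusted p = 0.03) was lost without mouse 2, 3 or 62 (adjusted p = 0.0749, 0.0893 and 0.147) and turned to -0.03 under quantile normalization. Irf8 at 1 hr (-0.15, adjusted p = 0.0662) was called with mouse as a block (adjusted p = 0.0444), without mouse 55 (adjusted p = 0.0205) and under quantile normalization (-0.41).

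Levels of the members can be ranked only per length of transcript, here as 2 to the power of rlog per kb of annotated exon, on a linear scale. In untreated WT cells Irf5 was the highest at 3465 ± 126 per kb (SD, n = 4), followed by Irf7 at 1879, Irf1 at 1559, Irf8 at 1382, Irf2 at 1008, Irf9 at 855, Irf3 at 679 and Irf4 at 24.7, and no neighbours in this order overlapped. At 6 hr Irf7 led with 18631 ± 1032 per kb, ahead of Irf1 at 5491 and Irf5 at 4043, while Irf4 was at 6.56, again without overlap between neighbours. At 1 hr Irf9, Irf3 and Irf2 overlapped, at 3 hr Irf9 and Irf2, and at 9 hr Irf1 and Irf5. At 9 hr the order of Irf9 and Irf2 differed between the genotypes. In WT Irf9 (1236 to 1269 per kb) lay above Irf2 (1133 to 1205), and in KO Irf2 (1376 to 1508) lay above Irf9 (1170 to 1212).

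The question of the knockout was whether loss of CPEB4 changes these mRNAs. In untreated cells and at 1 hr no member was called by limma over the 8 libraries of the time. At 3 hr Irf4 was higher and Irf5 lower in KO cells, at 6 hr Irf5, Irf7 and Irf9 were lower, and at 9 hr Irf2 was higher. The differences were small, between -0.14 and -0.31 for the lower ones and 0.33 for Irf2, except for Irf4 at 1.03. Of all genes tested, 0.741% were called higher and 0.565% lower at 0 hr, 0.976% and 0.938% at 1 hr, 1.81% and 1.87% at 3 hr, 6.4% and 9.92% at 6 hr and 4.69% and 3.22% at 9 hr. At an unadjusted p under 0.05, 2 members passed at 0 hr (Irf4 and Irf7), beside 2306 of 13095 genes tested. At 1 hr 3 members passed (Irf3, Irf4 and Irf7), beside 4631 of 13118 genes, so 3 of 8 lay near the background. With mouse as a block, in a fit of all 40 libraries, those 3 were called at 1 hr. That fit without the block called Irf3 and Irf4 (adjusted p = 0.0316 and 0.0146). At 6 hr, where the calls were most, quantile normalization moved the share that was higher from 39.2% to 51%.

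**Figure D3:**
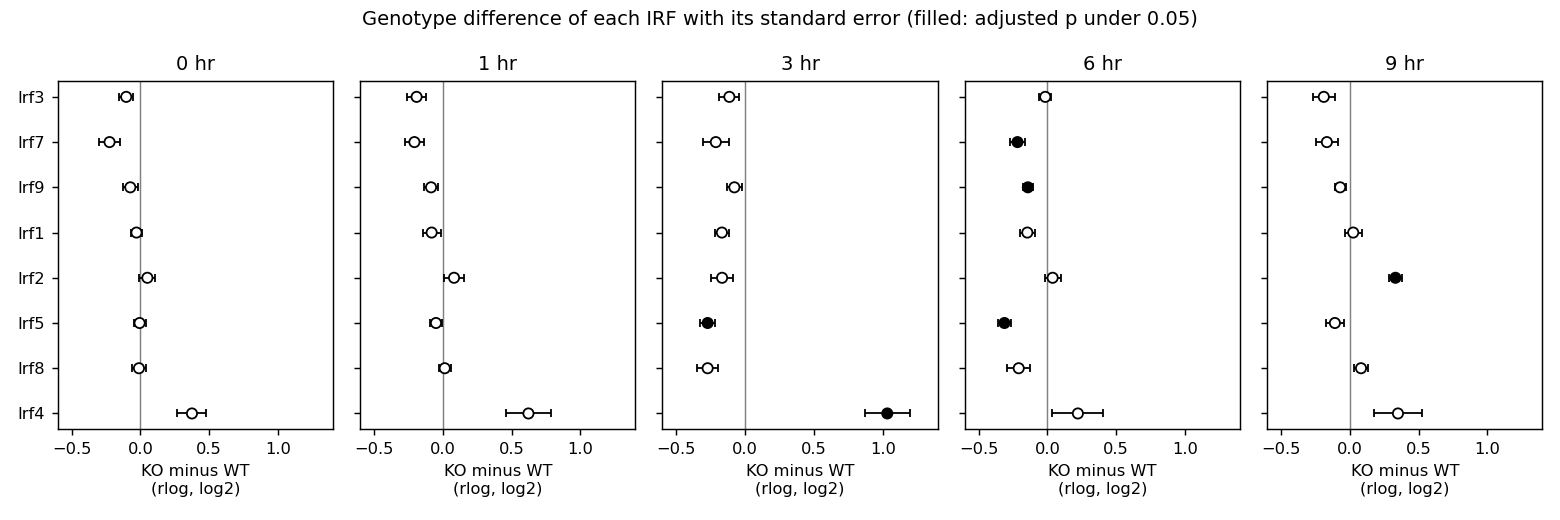
KO minus WT difference in rlog (log2 scale) of each IRF gene at 0, 1, 3, 6 and 9 hr with LPS, 1 panel per time, with standard error bars and 4 mice per genotype; filled points passed an adjusted p of 0.05. The filled points are Irf4 (1.03) and Irf5 (-0.27) at 3 hr, Irf5 (-0.31), Irf7 (-0.22) and Irf9 (-0.14) at 6 hr and Irf2 (0.33) at 9 hr.

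Irf5 was lower in KO cells at 3 and 6 hr. At 6 hr it was 13.27, 13.47, 13.37 and 13.42 in WT mice 25, 69, 87 and 88 and 13.06, 13.04, 13.14 and 13.05 in KO mice 2, 3, 55 and 62. All 4 KO values lay below all WT values. The difference was -0.31 ± 0.05 (adjusted p = 0.0014), with -0.30 in batch 1 and -0.32 in batch 2, and it was called under each of 15 alternative settings (adjusted p at most 0.0143; -0.20 under quantile normalization).

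At 3 hr Irf5 was 13.59, 13.55, 13.65 and 13.51 in WT and 13.28, 13.23, 13.41 and 13.29 in KO, again without overlap (-0.27 ± 0.05, adjusted p = 0.0254; -0.29 and -0.25 in the batches). This call was lost in 7 of 15 settings, which were no trend, no filter and leaving out KO mouse 2, 3 or 62 or WT mouse 25 or 87 (adjusted p = 0.0562 to 0.0962). It was not called before LPS (-0.01 ± 0.04, adjusted p = 0.952), at 1 hr (-0.05 ± 0.04, adjusted p = 0.386) or at 9 hr (-0.11 ± 0.06, adjusted p = 0.312; adjusted p = 0.0428 without KO mouse 2).

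Whether a genotype difference departed from that before LPS was tested as an interaction over all 40 libraries. Irf5 at 6 hr was the only member called (-0.31 ± 0.07, adjusted p = 0.00976). At an unadjusted p under 0.05 there were 0, 4, 2 and 1 members at 1, 3, 6 and 9 hr. Of all 13103 genes tested, 206, 659, 1977 and 1569 passed that unadjusted threshold at those times. In either direction 0.00763%, 0.206%, 2.94% and 1.76% of all genes were called at those times, and at 6 hr quantile normalization moved the share that was higher from 30.6% to 44.9%. The Irf5 interaction was -0.21 under quantile normalization (adjusted p = 0.0509) and was lost without KO mouse 62 (adjusted p = 0.089) or WT mouse 88 (adjusted p = 0.0575). With mouse as a block, Irf5 was also called at 3 hr (-0.27, adjusted p = 0.0197; 0.122 without the block).

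As deposited, the mean of Irf7 was lower in KO cells by a like amount at every time. Before LPS it was 12.02, 12.10, 12.26 and 12.15 in WT and 11.997, 11.78, 12.08 and 11.78 in KO, groups that overlapped (-0.22 ± 0.08, adjusted p = 0.177). At 1, 3 and 9 hr the differences were -0.21, -0.21 and -0.17 (adjusted p = 0.0934, 0.211 and 0.212), with overlap at each time. At 6 hr it was 15.34, 15.49, 15.42 and 15.52 in WT and 15.22, 15.20, 15.30 and 15.17 in KO, which did not overlap (-0.22 ± 0.05, adjusted p = 0.0155; -0.24 and -0.20 in the batches).

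The interaction of Irf7 at 6 hr was 0.01 ± 0.12 (adjusted p = 0.986), so a departure from the difference before LPS was not shown. Under quantile normalization the Irf7 difference was -0.24, -0.22, -0.15, -0.10 and -0.11 at 0, 1, 3, 6 and 9 hr. None of these was called. The 6 hr call was lost with mouse as a block (adjusted p = 0.0559), with all 40 libraries in 1 fit (adjusted p = 0.0714), with no filter (adjusted p = 0.059) and under quantile normalization (-0.10, adjusted p = 0.204). With the block it was called at 1 hr instead (adjusted p = 0.0439), as also without WT mouse 69 (adjusted p = 0.0474), and without KO mouse 2 it was called at 9 hr (adjusted p = 0.0462).

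The mean of Irf9 was lower in KO at all 5 times, by 0.07 to 0.14, but it was called at 6 hr only (adjusted p = 0.484, 0.226 and 0.393 at 0, 1 and 3 hr), and in batch 2 the difference was 0.0013 at 0 hr and -0.0003 at 3 hr. At 6 hr it was 12.19, 12.23, 12.19 and 12.26 in WT and 12.09, 12.07, 12.12 and 12.02 in KO, which did not overlap (-0.14 ± 0.04, adjusted p = 0.023; -0.18 and -0.10 in the batches). The call was lost in 7 of 15 settings, namely without the trend (adjusted p = 0.0586), under quantile normalization (-0.07, adjusted p = 0.118) and without KO mouse 2, 3 or 62 or WT mouse 69 or 88 (adjusted p = 0.055 to 0.0604). At 9 hr the groups were separate too, at 11.90 to 11.94 in WT and 11.82 to 11.88 in KO, but the difference was not called (-0.07 ± 0.04, adjusted p = 0.299).

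Some macrophage markers were also lower in KO at 3 and 6 hr. At 6 hr 4 of 8 macrophage markers were called lower in KO and none higher (Lyz2, Cd68, Csf1r and Fcgr1), beside 9.92% of all genes lower. The summed linear level of the 8 markers did not overlap between the genotypes. The mean rlog of the highly expressed genes was 13.38 in KO and 13.45 in WT. At 3 hr 2 of 8 markers were lower, beside 1.87% of all genes. The part of these markers in the differences of Irf5, Irf7 and Irf9 was not tested.

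Irf4 had the largest difference of the 8. At 3 hr it was 5.33, 6.00, 5.84 and 5.87 in WT and 6.54, 7.07, 6.60 and 6.96 in KO. All KO values lay above all WT values, and the mean was 2.05-fold higher (1.03 ± 0.17, adjusted p = 0.0126). The difference was larger in batch 1 (1.42) than in batch 2 (0.65), with 2 mice of each genotype in each. The call was lost without the filter (adjusted p = 0.0586) and without KO mouse 3 or 62 (adjusted p = 0.056 and 0.0501).

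At the other times Irf4 was higher in KO by 0.37 ± 0.11 before LPS, 0.62 ± 0.17 at 1 hr, 0.22 ± 0.19 at 6 hr and 0.35 ± 0.17 at 9 hr (adjusted p = 0.112, 0.0719, 0.464 and 0.224), with overlap at each. With mouse as a block it was called at 1 hr (adjusted p = 0.00794), as it was with all 40 libraries in 1 fit (adjusted p = 0.0146) and without KO mouse 2 or WT mouse 69 (adjusted p = 0.0497 and 0.0223). The interaction at 3 hr was 0.66 ± 0.26 (adjusted p = 0.685). Among dendritic cell markers Zbtb46 was also higher in KO at 3 hr (3.47 in WT and 4.56 in KO, 1.10 ± 0.15, adjusted p = 0.00679), and it was the only one of 3 tested to be called there. The summed linear level of the 6 dendritic cell markers was 139 to 161 in WT and 125 to 156 in KO at 3 hr, of which Xcr1 made up 81.9% to 83.3% in WT and 69.6% to 72.4% in KO. That full sum overlapped between the genotypes. Without Xcr1, which had the smaller share in KO, the sum was 23.2 to 27.7 in WT and 36.9 to 46.9 in KO, which did not overlap. That sum includes Zbtb46, so it is not separate from the Zbtb46 difference. Without Xcr1 the genotypes also stood apart at 1 hr (24.4 to 27.6 in WT and 29.0 to 33.0 in KO). At 0, 6 and 9 hr they overlapped. Of 3 dendritic cell markers tested, 1 was called higher in KO at 0 hr and none lower. At 6 hr 1 of 3 was called lower and none higher, beside 9.92% of all genes lower. Over all libraries Xcr1 reached 7.06, Zbtb46 4.72, Clec9a 4.17, Siglech 2.90, Flt3 2.53 and Cd209a 0.45. The part of such cells in the Irf4 difference was not tested.

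Irf2 differed at 9 hr, the last time. It was 11.47, 11.47, 11.55 and 11.51 in WT and 11.75, 11.88, 11.85 and 11.85 in KO. The KO values all lay above the WT ones (0.33 ± 0.05, adjusted p = 0.00426; 0.38 and 0.29 in the batches), and the difference was called under each of 15 settings (adjusted p at most 0.0245). At 0, 1, 3 and 6 hr the differences were 0.05, 0.08, -0.17 and 0.04 (adjusted p = 0.645, 0.404, 0.231 and 0.703). The interaction at 9 hr was 0.28 ± 0.09 (adjusted p = 0.131), so a departure from the difference before LPS was not shown for Irf2. Markers of macrophages were called lower in KO for 3 of 8 at 9 hr and higher for none, beside 3.22% of all genes lower. The part of these markers in the Irf2 difference was not tested.

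Irf1, Irf3 and Irf8 were called at no time. Irf1 at 3 hr was 15.03, 14.98, 15.08 and 15.00 in WT and 14.84, 14.82, 14.93 and 14.84 in KO, groups that did not overlap, with a difference of -0.17 ± 0.05 (adjusted p = 0.0787; 0.0496 with mouse as a block). Irf8 at 3 hr was 13.10, 12.95, 13.08 and 13.17 in WT and 12.68, 12.78, 13.01 and 12.73 in KO, where KO mouse 55 overlapped WT mouse 69 (-0.27 ± 0.07, adjusted p = 0.0725; 0.0104 with the block). With the block Irf8 at 6 hr was called as well (-0.21, adjusted p = 0.0384). So was Irf3 at 1 hr (-0.19, adjusted p = 0.0274) and 9 hr (-0.19, adjusted p = 0.0405). The block fit also held all 40 libraries, and that fit without the block called the same differences. Its adjusted p was 0.0382 for Irf1 and 0.00883 for Irf8 at 3 hr. It was 0.0326 for Irf8 at 6 hr, and 0.0316 and 0.0471 for Irf3 at 1 and 9 hr. At 3 hr leaving out WT mouse 88 brought calls of Irf1, Irf3 and Irf8 (adjusted p = 0.0376, 0.031 and 0.0476), leaving out KO mouse 55 a call of Irf8 (adjusted p = 0.0324), and at 9 hr leaving out KO mouse 2 a call of Irf3 (adjusted p = 0.00747).

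The genes around the IRFs were read from lists of textbook roles. For upstream signalling (14 genes of the TLR adaptors, the kinases TBK1 and IKKε and other routes to them, such as MAVS and STING), 9 were called higher and 3 lower in WT at 6 hr, beside 38.7% and 39.2% of all genes, with a median change of 0.46 against -0.02 over all genes. The largest changes were those of Ikbke, which encodes IKKε (1.99 ± 0.06), and Myd88 (1.82 ± 0.05). In KO 0 were higher and 2 lower than WT at 6 hr, namely Ikbke (-0.26 ± 0.05, adjusted p = 0.00396) and Tmem173, which encodes STING (-0.28 ± 0.07, adjusted p = 0.0156), with a list median of -0.11, or -0.03 under quantile normalization. Of all genes 6.4% were higher and 9.92% lower at 6 hr, so 2 of 14 lay near the background.

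In the interferon arm (7 genes of interferon production and signalling), 7 of 7 were called higher in WT at 3, 6 and 9 hr (32.5%, 38.7% and 35.9% of all genes), of which Ifnar2 turned to -0.13 at 3 hr and -0.0045 at 6 hr under quantile normalization. Ifnb1 led at 1 hr (4.70 ± 0.21) and Stat2, the partner of IRF9, followed at 6 hr (2.47 ± 0.05). In KO Stat2 (-0.20 ± 0.06, adjusted p = 0.0447) and the kinase gene Tyk2 (-0.41 ± 0.06, adjusted p = 0.00144) were lower at 6 hr and Ifnb1 at 3 hr (-0.66 ± 0.13, adjusted p = 0.0306); the list median at 6 hr was 0.0013, and 9.92% of all genes were lower at that time. Under quantile normalization 1 gene was called higher and 1 lower at 6 hr.

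Of 12 antiviral genes driven by IRF3, IRF7 or ISGF3, 12 were called higher in WT at 3, 6 and 9 hr (32.5%, 38.7% and 35.9% of all genes), led by Ccl5 (4.71 ± 0.07) and Rsad2 (4.63 ± 0.09) at 6 hr. In KO 10 of 12 were lower than WT at 6 hr and none higher, beside 9.92% of all genes, with a list median of -0.32 (-0.21 under quantile normalization). They were Rsad2 (-0.60 ± 0.10), Ifit2 (-0.57 ± 0.12), Ifit3 (-0.56 ± 0.06), Usp18 (-0.45 ± 0.06), Ifit1 (-0.39 ± 0.08), Mx1 and Mx2 (both -0.32), Isg20 (-0.27), Isg15 (-0.24) and Oas1a (-0.15), with adjusted p of 0.0472 or less, and under quantile normalization 7 of 12. Before LPS the list median was already -0.19, with 0 of 12 called by limma. At an unadjusted p under 0.05 there were 9 of 12, beside 2306 of all 13095 genes tested. At 6 hr 0 of 12 interactions were called, or 1 under quantile normalization. At an unadjusted p under 0.05 there were 2 of 12 interactions, near the background of 1977 of 13103 genes. In KO against WT 4 of 12 were lower at 3 hr and 2 at 9 hr, beside 1.87% and 3.22% of all genes. Under quantile normalization 3 were lower at 3 hr, and at 9 hr 1 was lower and 1 higher.

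For genes driven by IRF1 or IRF8 (guanylate binding proteins, antigen processing, Nos2 and the IL-12 family), 9 of 10 were called higher in WT at 6 hr, beside 38.7% of all genes, with Nos2 at 5.98 ± 0.16 and Il27 at 4.77 ± 0.11 at its 3 hr peak. In KO 6 of 10 were lower at 6 hr, which were Il12b (-0.53 ± 0.16), Il27 (-0.51 ± 0.08), Gbp5 (-0.36 ± 0.07), Tap1 (-0.23 ± 0.05), Gbp2 (-0.22 ± 0.07) and Psmb8 (-0.14 ± 0.04), and none was higher (list median -0.23), beside 9.92% of all genes lower; under quantile normalization 2 of 10 were lower (list median -0.11). Ciita, the master regulator of MHC class II genes, went the other way in untreated cells (0.73 ± 0.10 higher in KO, adjusted p = 0.00811), with an interaction of -0.68 ± 0.19 at 6 hr (adjusted p = 0.0405).

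The 4 cytokine genes linked to IRF5 moved in both directions. At 6 hr Il12a (0.94 ± 0.20, adjusted p = 0.00786), Il23a (0.68 ± 0.16, adjusted p = 0.0137) and Il6 (0.48 ± 0.13, adjusted p = 0.0206) were higher in KO, and Tnf was lower (-0.35 ± 0.06, adjusted p = 0.00236), beside 6.4% and 9.92% of all genes, while Irf5 itself was lower. Il23a was low, at 3.78 in WT and 4.46 in KO at 6 hr. Of the 4 interactions at 6 hr, 0 were called higher and 1 lower, beside 2.94% of all genes in either direction. Under quantile normalization none of the 4 was called. In WT Il6 had risen by 4.73 ± 0.12 at 6 hr and Tnf by 4.36 ± 0.07 at 1 hr. Of genes linked to IRF4 and alternative activation, 2 of 3 were tested. Chil3 was low, at 3.16 untreated and 3.87 at 1 hr in WT. Arg1 was at 4.27 in WT and 4.84 in KO at 6 hr, and at 5.78 and 7.39 at 9 hr. Chil3 rose by 0.71 ± 0.24 in WT at 1 hr (adjusted p = 0.0239), and Arg1, which encodes arginase, by 1.83 ± 0.24 at 9 hr and was higher in KO at 6 hr (0.57 ± 0.13, adjusted p = 0.014) and 9 hr (1.61 ± 0.16, adjusted p = 0.000679), with an interaction of 1.79 ± 0.32 at 9 hr (adjusted p = 0.00105).

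**Figure D4:**
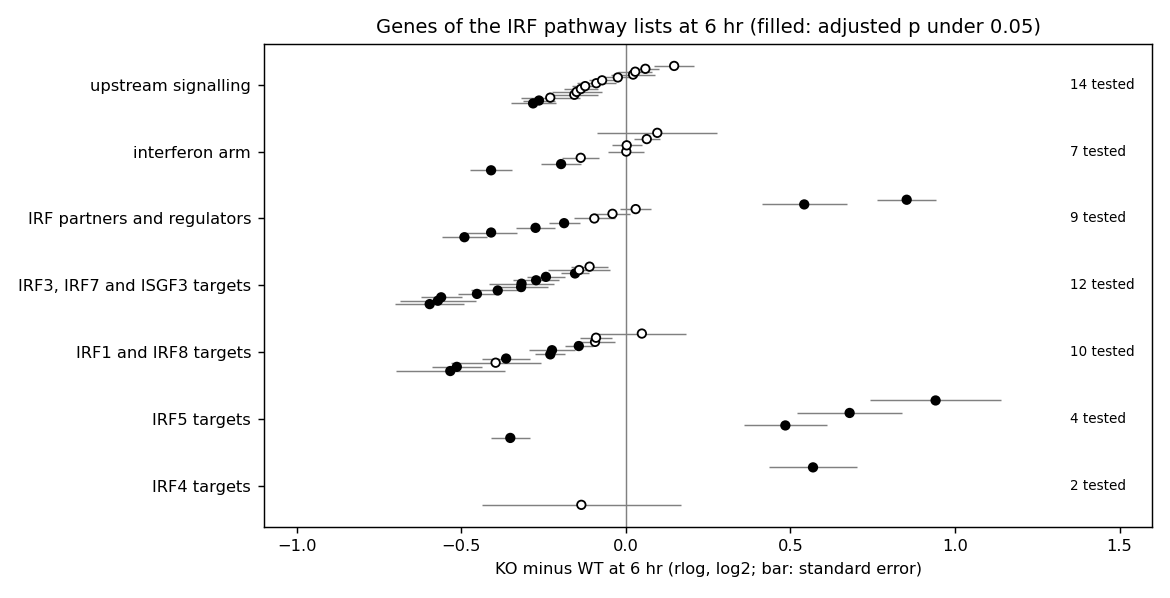
KO minus WT difference at 6 hr in rlog (log2 scale, bars are standard errors, 4 mice per genotype) for each tested gene of the 7 IRF pathway lists, 1 row per list; filled points passed an adjusted p of 0.05. Of the antiviral targets of IRF3, IRF7 and ISGF3, 10 of 12 lie filled on the lower side (7 of 12 under quantile normalization), and 3 of the 4 IRF5-linked cytokine genes lie filled on the higher side.

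Among 9 partners and regulators of IRFs, 5 were called higher and 3 lower in WT at 6 hr, beside 38.7% and 39.2% of all genes, with Batf2 (3.81 ± 0.08) and Batf (3.54 ± 0.09), leucine zipper partners of IRF4 and IRF8, changing the most. In KO 2 were higher and 4 lower than WT at 6 hr (3 lower under quantile normalization), beside 6.4% and 9.92% of all genes. The lower ones were Batf2 (-0.49 ± 0.07, adjusted p = 0.000921), Trim21 (-0.41 ± 0.08, adjusted p = 0.00479), a ubiquitin ligase for IRFs, Irf2bpl (-0.27 ± 0.06, adjusted p = 0.00878) and Spi1, which encodes PU.1 (-0.19 ± 0.05, adjusted p = 0.018). Batf3 (0.54 ± 0.13, adjusted p = 0.0142) and Irf2bp2 (0.85 ± 0.09, adjusted p = 0.00019) were higher.

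Irf2bp2 encodes a co-repressor that binds IRF2. It fell from 11.80 in untreated WT cells to 8.98 at 3 hr. At 6 hr it was 10.29, 10.41, 10.20 and 10.03 in WT mice 25, 69, 87 and 88 and 10.999, 11.28, 10.90 and 11.17 in KO mice 2, 3, 55 and 62, without overlap, and in the batches the difference was 1.06 and 0.64. The interaction at 6 hr was 0.90 ± 0.10 (adjusted p = 4.78e-07), and at 9 hr Irf2bp2 was still higher in KO (0.23 ± 0.05, adjusted p = 0.0315).

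**Figure D5:**
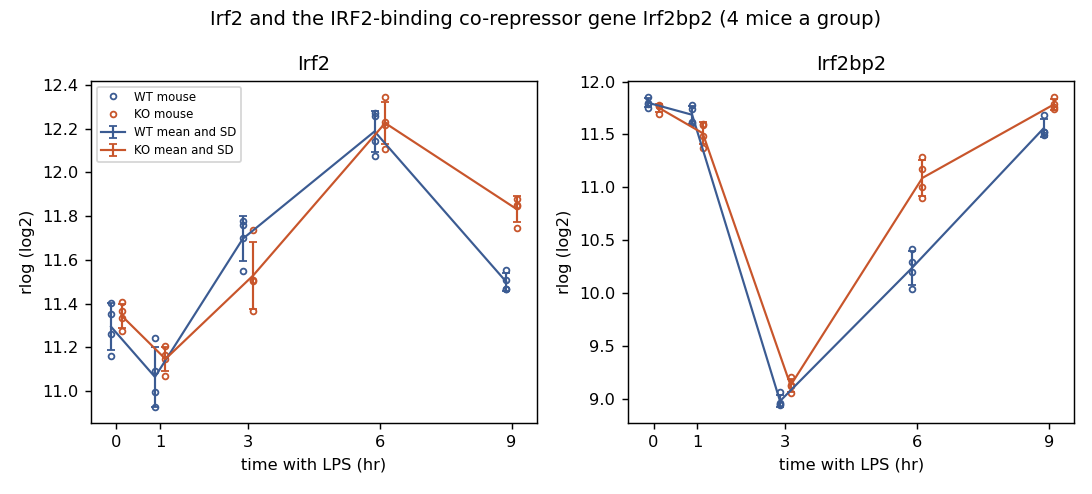
rlog level (log2 scale) of Irf2 and Irf2bp2 against time with LPS in hr, with 1 open point per mouse and lines through the mean with SD bars of 4 WT and 4 KO mice. Irf2bp2 falls to 8.98 in WT at 3 hr and recovers more by 6 hr in KO (11.09) than in WT (10.23), and Irf2 at 9 hr is 11.83 in KO and 11.50 in WT.

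The members fell into different courses over the 40 libraries, which share mice and times, so the correlations are a description. Irf8 and Irf9 were closest (Pearson r = 0.93), followed by Irf7 and Irf9 (0.89) and Irf2 and Irf8 (0.89), while Irf4 ran against Irf7 (-0.93) and Irf1 was nearly unrelated to Irf2 (0.02). Among 12033 genes compared, the courses nearest to Irf7 were those of Zbp1 (0.999), Isg20 (0.997) and Phf11b (0.996), and nearest to Irf9 were Rsad2 (0.989), Ifit1 (0.987) and Cnn3 (0.986). Irf1 was nearest to Tlr2, Tnfaip3 and Icam1 (each 0.98), Irf8 to Plekhf2 (0.984), Whamm (0.971) and Pi4k2a (0.969), and Irf2 to Cenpj (0.959), Tmem67 (0.955) and Adap2 (0.955). Irf4 was nearest to Npas2 (0.962), Klf9 (0.959) and Bhlhe40 (0.953), Irf5 to Cd80 (0.9), Atp6ap2 (0.874) and Mrpl4 (0.864), and Irf3, whose nearest courses were the least close, to Hpn (0.865), Cpxm1 (0.859) and Gdf15 (0.832).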

How the data were processed

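Poly(A) RNA was sequenced from BMDMs of 4 WT and 4 KO mice at 5 times with LPS. The authors aligned reads to mm10 with STAR 2.3.0e, counted them per gene with featureCounts and deposited 1 table of DESeq2 rlog values, which are on a log2 scale. Versions of featureCounts and DESeq2 were not given in the sources used here. Read totals are not in the table, so no depth or counting interval is given, and the count test of the study was replaced by limma. Samples were grouped by the labels' genotype and time. No value column was left unused, and no libraries were identical.

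Constant rows (6039) were dropped. limma 3.58.1 (R 4.3.3; lmFit, eBayes with trend) was fitted to KO against WT over the 8 libraries of each time, to the times within each genotype over its 20 libraries and to the interaction over 40, on genes averaging log2 of 5 or more, with Benjamini-Hochberg adjustment over all genes tested. The calculation was tested on simulated data in which libraries varied independently, so that test does not cover variation shared by libraries of 1 mouse. Libraries of 1 mouse deviated together: 68 of 80 same-mouse pairs correlated over 0.1 (medians by mouse 0.15 to 0.387, against -0.137 to -0.0617 with other mice), and the pairing is that the same animals gave all times, so fits with mouse as a replicate block were alternatives. The others were batch as a covariate, other filters, no trend, quantile normalization, all libraries in 1 fit and leaving out each mouse. For KO against WT the block fit also held all 40 libraries.

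The members and gene lists were chosen with earlier results of these data known. Named were all members, from each list the 2 genes with the largest called WT change and those called for genotype at 6 hr, and the 3 genes most correlated with each member; Ciita, Zbtb46, single calls at other times and interactions were named after their values were seen. Python 3.11.15 and pandas 2.3.3 were used for descriptions. Some items are not reported here.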

Additional observations from a re-analysis of the deposited data

Results flagged for a closer look

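The Irf8 level of KO mouse 55 at 9 hr, 12.75, stood apart from the other 3 KO mice at that time (12.67, 12.66 and 12.67) by more than the 95% critical value of Dixon's test allows for 4 samples. It was 1 of 80 member groups looked at, and chance gives about 1 in 20. Irf5 changed differently with LPS in the genotypes at 6 hr, with an interaction of -0.31 over all 40 libraries (limma adjusted p = 0.00976), against -0.21 under quantile normalization (adjusted p = 0.0509).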

How the results depend on the processing

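Of 1807 recomputed member differences, 1640 kept their direction and their side of the threshold, 50 changed sign while called in neither setting, 63 calls were lost and 35 gained, and 19 changes turned, all of them under quantile normalization. For these the cause was not tested. They were, in WT, Irf5 (-0.023), Irf7 (-0.20) and Irf9 (-0.024) at 1 hr, Irf5 at 3 hr (-0.21), Irf3 (-0.23) and Irf5 (-0.64) at 6 hr and Irf2 (-0.066), Irf3 (-0.0063) and Irf8 (-0.036) at 9 hr against untreated, Irf1 (-0.17) and Irf5 (-0.19) from 1 to 3 hr, Irf8 (-0.067) and Irf9 (-0.031) from 3 to 6 hr and Irf5 (0.011) and Irf7 (0.088) from 6 to 9 hr. In KO they were Irf5 (-0.063) and Irf9 (-0.032) at 1 hr and Irf2 (-0.10) and Irf5 (-0.44) at 3 hr. Of 226 counts of called members, 201 stayed within 1.5 times. With the replicate block (mouse) the count of called members in KO against WT was 3, 4 and 2 at 1, 3 and 9 hr, and 1 for the interaction at 3 hr; the values are beside the genes. With all 40 libraries in 1 fit they were 2, 4 and 2. At 3 hr the count was 0 with no filter and 1 with no trend, and quantile normalization gave 1 at 6 hr and 0 for the interaction at 6 hr. Leaving out 1 mouse gave 0 to 2 called members at 1 hr, 0 to 5 at 3 hr, 2 to 3 at 6 hr and 1 to 4 at 9 hr in KO against WT, 0 to 1 for the interaction at 6 hr, 4 to 5 in WT at 1 hr and 4 to 7 in KO at 3 hr. With 4 mice a group the median standard error of KO against WT over all genes was 0.0675 to 0.0911 on the log2 scale, which limits the calls of small differences, and read totals are not in the table.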
